A study of Oryza sativa with 2 samples.

Results

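Some rice gene models received reads from seedlings raised in saline solution and none at all from seedlings raised in water. A model counts here when it had 0 counts in the control library and at least 24 counts in the salinity library. In the deposited table, 59 of 55986 gene models met both thresholds, 1 of them is left out by the selection, and the other 58 are described. They are 0.286% of the 20274 models with at least 24 salinity counts. They are also 0.104% of all models. The models were chosen by their counts in both libraries, so their presence in one library and absence from the other is a description and not a finding. All 58 stood at 1.74 CPM or above in the salinity library, where CPM is counts per 1e6 scaled counts. They lay on 10 of the 12 chromosomes, with 16 of them on chromosome 1, and included 2 runs of 4 and 3 models that span 80.4 and 23.5 kb of that chromosome. Other gene models lie between some models of each run.

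Salinity seedlings of the cultivar CARI Dhan 7 were germinated and grown for 14 days in a solution of NaCl, CaCl2 and the sulfates of sodium and magnesium at an electrical conductivity of 6 dS/m. Control seedlings of the same cultivar and age were raised in distilled water. Each group had 1 library of poly(A)-enriched RNA from seedlings, so there is no replicate check and no test, and no p-value is given. The sources used here do not say whether both groups came from 1 seed lot. A response to salt, a difference between the seeds used and a difference between the 2 libraries cannot be told apart. In bulk seedlings, fewer cells of a type and less RNA per cell cannot be told apart either.

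The salinity library held 15031328 counts and the control library 45359020. Every salinity value above 0 was even, against 61.7% of control values above 0. Of salinity values above 0, 70.6% were multiples of 4, against 29.1% of control values. For intervals and limits, 4 salinity counts or 2 control counts were taken as 1 read pair. This unit is an assumption that not every value meets, and every number of read pairs and every interval given here rests on it. It gives 3757832 pairs in salinity and 22679510 in control, so the library with no reads for these models was the deeper one. A count of 0 in control allows up to 3 read pairs, or 6 counts, which is 0.121 CPM. All 3 leaf marker loci and all 3 root marker loci looked up had reads in both libraries. The leaf loci summed to 36264 CPM in salinity and 23354 CPM in control, and the root loci to 548 CPM in salinity and 636 CPM in control. The root loci went different ways. Those taken for Lsi1 and NRT2.1 had 502.6 and 15.7 CPM in salinity, against 359.6 and 3.96 CPM in control, and that taken for NAS1 had 29.9 CPM in salinity and 272.8 CPM in control. The 3 loci of germinating grain summed to 9.01 CPM in salinity and 1405 CPM in control. That contrast rests on 1 locus, the one taken for AMY1A, an alpha-amylase that breaks down starch in the germinating grain, with 0 salinity counts and 68861 control counts (1390 CPM). The loci taken for AMY3D and GLUA2 had 6.97 and 2.03 CPM in salinity, against 11.5 and 2.99 CPM in control. Its part in what follows was not tested.

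As background, the reference annotation used for rice lists many loci that a given cultivar may lack, because rice cultivars differ in which genes they carry as well as in how strongly they express them. The number of reads assigned to a model depends on whether the plant has the gene, whether it is transcribed in the tissue, and whether its reads match the reference. Salt is known to switch on transcription of some rice genes that are silent in unstressed tissue. The files pair no locus with a gene name, and none of the 58 identifiers is in the name table used here, so no function is given for any of them. They are identified by locus, position, exon length and neighbours. Positions are those of the deposited table, and the sources used here name no genome build for them.

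The salinity levels of the 58 models ran from 1.74 to 100.7 CPM, with a median of 3.49 CPM. The other 20216 models with at least 24 salinity counts had a median of 15.98 CPM. Per kilobase of exon the 58 ran from 0.398 to 41.3 CPM, with a median of 2.99, against 9.05 in the others. Together they held 7124 salinity counts, 0.0474% of the library, and 32.1% of those came from the 2 most abundant models. Of the 58, 28 had 24 to 46 salinity counts, 15 had 48 to 98 and 15 had at least 100. Thus 43 of 58 rested on fewer than 25 read pairs. The share of models at 0 in control fell with the salinity level. It was 1.09% of models with 24 to 47 salinity counts, 0.458% with 48 to 95, 0.213% with 96 to 191 and 0.0735% with 192 or more.

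**Figure D1:**
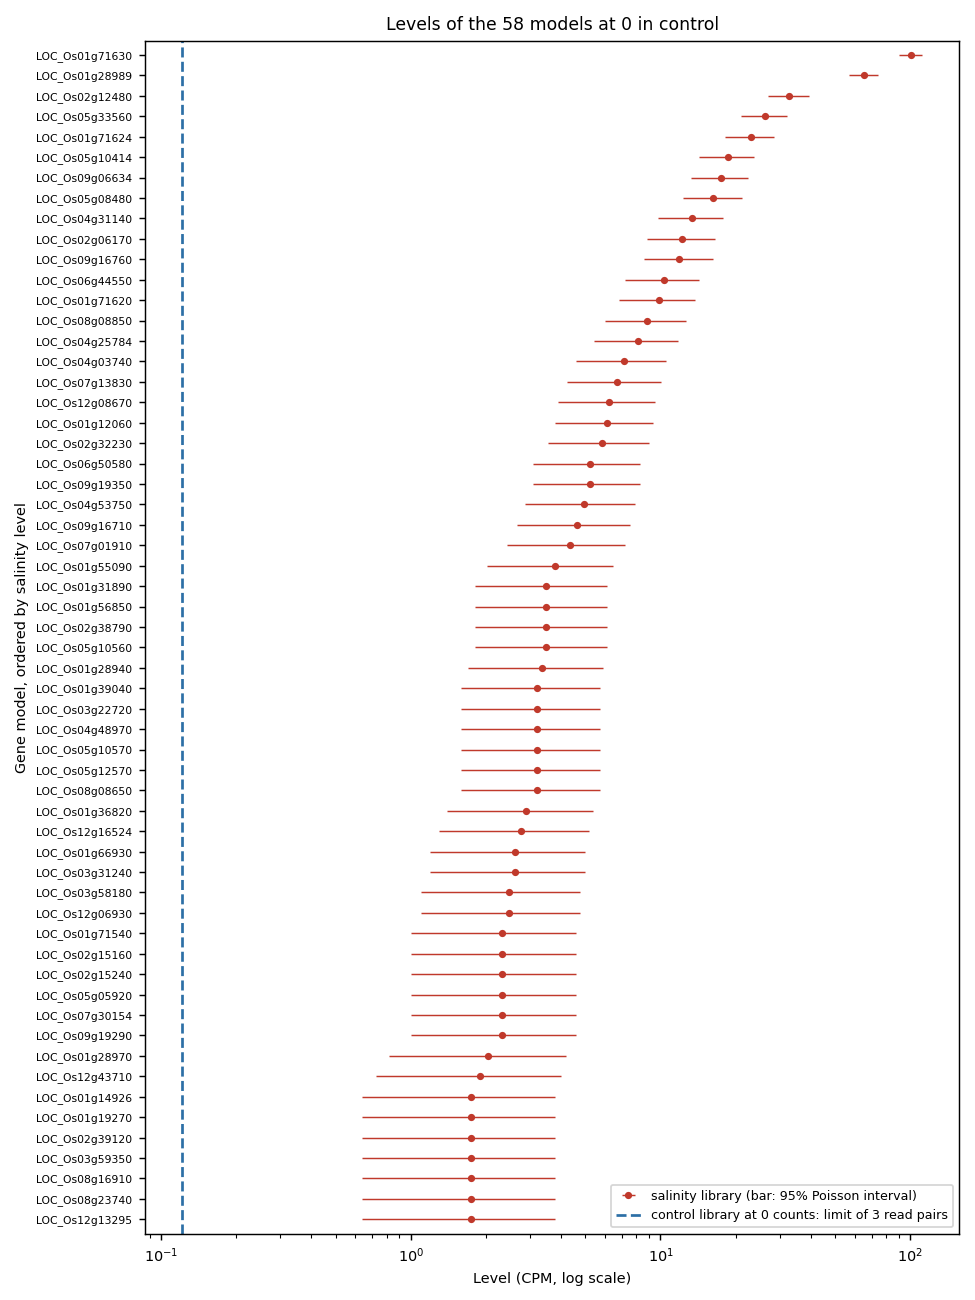
Salinity level of each of the 58 gene models in CPM on a log axis (points, with 95% Poisson intervals on the read-pair scale) and the limit that 0 control counts allow (dashed line, 0.121 CPM). The points run from 100.7 down to 1.74 CPM, and the lower end of every interval lies to the right of the control limit.

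LOC_Os01g71630 (chromosome 1, 41510185 to 41519730, plus strand, 6 exon blocks, 2437 exon bases) was the most abundant. It had 1386 counts or 100.7 CPM in salinity (95% Poisson interval 90.4 to 111.9), against 0 counts in control, at least 831-fold higher. At the salinity level it would have had 4987 control counts. LOC_Os01g28989 (chromosome 1, 16232120 to 16234469) followed, with 900 counts or 65.4 CPM in salinity (interval 57.1 to 74.5) and 0 counts in control, at least 540-fold higher. Each of these models belongs to a run of such models on chromosome 1, and no other model of the 58 passed 33 CPM.

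LOC_Os02g12480 (chromosome 2, 6508812 to 6513830) had 452 salinity counts and 0 control counts, at least 271-fold higher. It is a single exon block of 5019 bases. LOC_Os05g33560 (chromosome 5, 19714723 to 19715367), a single block of 645 bases, had 360 salinity counts and 0 control counts, at least 216-fold higher. LOC_Os05g10414, on the same chromosome from 5673409 to 5674042, is also a single block and had 256 salinity counts and 0 control counts. These short models rank higher per length than by count.

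Per kilobase of exon, the 5 highest salinity levels were 41.3 CPM for LOC_Os01g71630, 40.5 for LOC_Os05g33560, 34.7 for LOC_Os01g28989, 29.3 for LOC_Os05g10414 and 18.1 for LOC_Os06g44550. The last is a model of 570 exon bases on chromosome 6 with 142 salinity counts and 0 control counts. LOC_Os02g12480, despite its 452 salinity counts, stood at 6.54 CPM per kilobase.

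A further 6 models made up the 12 most abundant together with these and LOC_Os01g71624 of the distal run. LOC_Os09g06634 had 240 salinity counts, LOC_Os05g08480 had 224, LOC_Os04g31140 had 184, LOC_Os02g06170 had 168 and LOC_Os09g16760 had 164, all with 0 control counts. LOC_Os06g44550 completes the 12. The lower bounds of their ratios ran from 85.2-fold in LOC_Os06g44550 to 143.9-fold in LOC_Os09g06634.

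Over all 58, the lower bound of the ratio ran from 14.4-fold to 831-fold with a median of 28.8-fold, and 10 models were at least 100-fold higher. With the lower Poisson limit of the salinity value in place of the value itself, the bounds ran from 5.28-fold to 746-fold with a median of 14.9-fold. The bounds cover counting error only, and PCR copies of 1 molecule cannot be told from separate molecules here. Of the 58 salinity counts, 48 were multiples of 4.

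At the edge of the selection, 7 models had exactly 24 salinity counts, or 6 read pairs, and 0 control counts. They were LOC_Os01g14926, LOC_Os01g19270, LOC_Os02g39120, LOC_Os03g59350, LOC_Os08g16910, LOC_Os08g23740 and LOC_Os12g13295. Just outside, LOC_Os02g18140, LOC_Os04g26380 and LOC_Os12g29390 had 22 salinity counts, LOC_Os01g27690 and LOC_Os01g28580 had 20, and all 5 had 0 control counts. Of models with at least 24 salinity counts, 4 had a single control count. They were LOC_Os08g42310 with 56 salinity counts, LOC_Os01g42020 and LOC_Os10g23240 with 34 each and LOC_Os12g32600 with 26. LOC_Os08g34390 had 1100 salinity counts and 2 control counts, a salinity level between those of the most abundant pair of the 58. In all, 863 models had 0 control counts and some salinity count, and 747 of those had 2 to 10 salinity counts.

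On chromosome 1, 16 of the 58 models were found, 27.6%, where 14.6% of the other models with at least 24 salinity counts lie. Chromosomes 10 and 11 held 0 of the 58, and they hold 10.0% of those other models. Chromosomes 2 and 5 held 7 each, chromosomes 4, 9 and 12 held 5 each, chromosomes 3 and 8 held 4 each, chromosome 7 held 3 and chromosome 6 held 2. Models of a run are counted one by one here. Of the 58, 30 were on the plus strand and 28 on the minus strand.

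**Figure D2:**
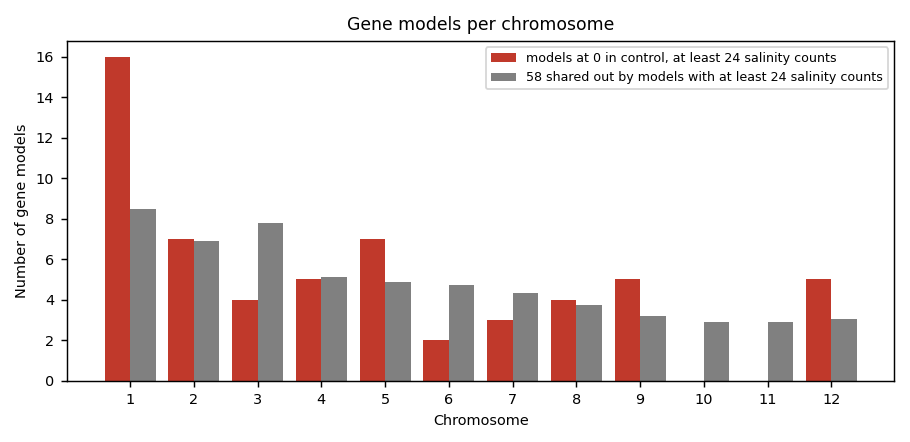
Number of the 58 gene models on each chromosome (red) beside the number each chromosome would have if 58 were shared out by its models with at least 24 salinity counts (grey). Chromosome 1 holds 16 against a share of 8.49, and chromosomes 10 and 11 hold 0 against shares of 2.89 and 2.90.

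The distal run on chromosome 1 held 4 models between 41439295 and 41519730, a span of 80.4 kb with 8 gene models. LOC_Os01g71620, LOC_Os01g71624 and LOC_Os01g71630 are next to each other and had 136, 316 and 1386 salinity counts and 0 control counts each. LOC_Os01g71540 lies 39.3 kb away and had 32 salinity counts and 0 control counts. Levels in the run therefore differed widely, from 0.868 CPM per kilobase for LOC_Os01g71540 to 41.3 for LOC_Os01g71630. The first of the adjacent models is on the minus strand and the following 2 on the plus strand, so they do not share 1 direction of transcription.

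Around this run, 15 models in a row had fewer than 6 control counts, over 126.1 kb. Together they had 1878 salinity counts, 1870 of them in the 4 models of the run, and 4 control counts. The low control sum follows from how the stretch is defined. Of the 15 models, 5 had any salinity count. Just before the stretch, LOC_Os01g71474 (chromosome 1, 41397748 to 41401593) had 0 salinity counts and 685 control counts, and LOC_Os01g71460 had 8 salinity counts and 116 control counts. Just after it, LOC_Os01g71670 had 650 salinity counts and 2287 control counts. A model read only in salinity and a model read only in control thus lie 37701 bases apart at the start of the stretch, LOC_Os01g71540 and LOC_Os01g71474.

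The middle run on chromosome 1 held 3 models between 16210935 and 16234469, a span of 23.5 kb with 6 gene models. LOC_Os01g28940 had 46 salinity counts, LOC_Os01g28970 had 28 and LOC_Os01g28989 had 900, with 0 control counts each. LOC_Os01g28980, between the last 2, had 8 salinity counts and 0 control counts. The 21 models in a row with fewer than 6 control counts around this run, over 104.3 kb, had 984 salinity counts and 0 control counts in all. The 3 models of the run held 974 of those salinity counts. The next models outside the 58 with at least 10 counts lie 56876 bases before LOC_Os01g28940 and 61636 bases after LOC_Os01g28989. The first, LOC_Os01g28840, had 101.6 CPM in salinity and 7.19 CPM in control, a log2 ratio of 3.82 (interval 3.56 to 4.09). The second, LOC_Os01g29104, had 1.16 CPM in salinity and 0.283 CPM in control, a log2 ratio of 2.03 (interval -0.18 to 4.02).

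**Figure D3:**
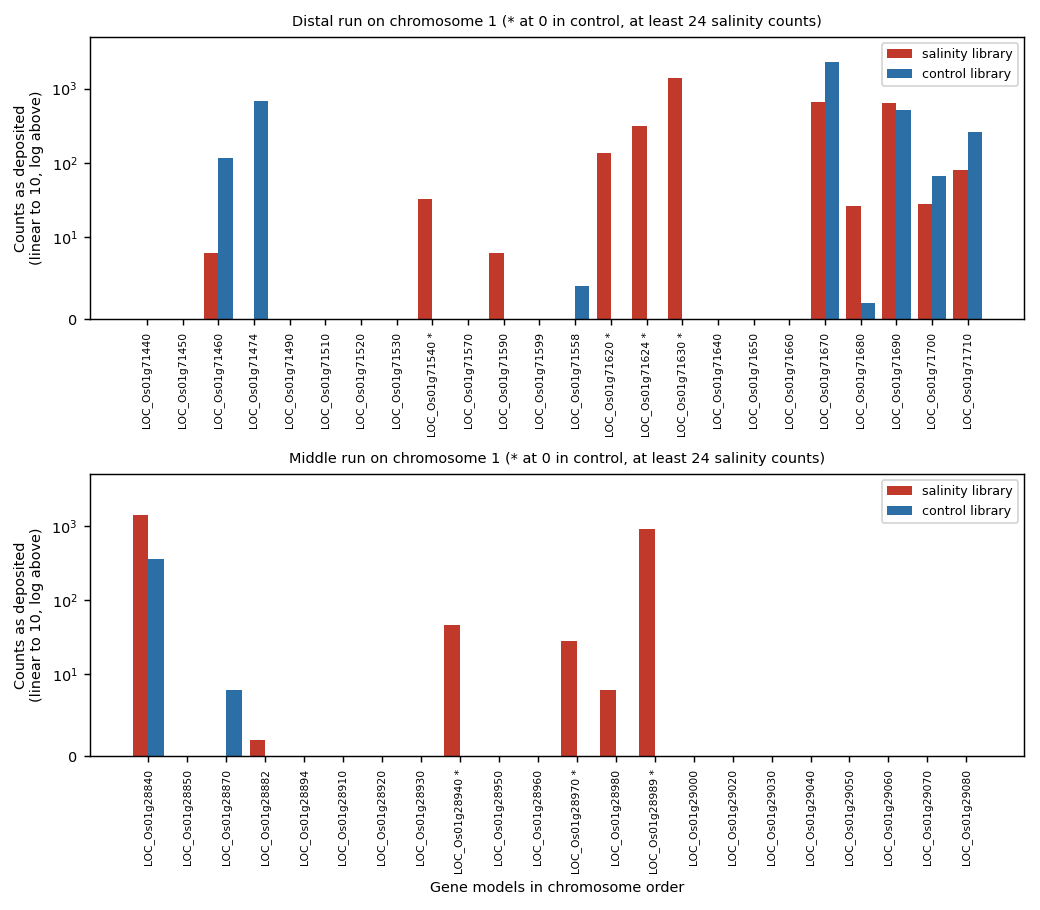
Counts as deposited in the salinity library (red) and the control library (blue) for the gene models around the distal run (top) and the middle run (bottom) on chromosome 1, in chromosome order, on an axis that is linear to 10 and log above. The starred models have red bars of 28 to 1386 counts and no blue bar, and the distal run is preceded by LOC_Os01g71474 with a blue bar of 685 counts and no red bar.

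On chromosome 5, LOC_Os05g10560 and LOC_Os05g10570 are adjacent, 1.73 kb apart, on the same strand, with 48 and 44 salinity counts and 0 control counts each. LOC_Os05g10414 lies 73.3 kb before them. On chromosome 9, LOC_Os09g16710 and LOC_Os09g16760 had 64 and 164 salinity counts and 0 control counts, 25.8 kb apart. They lie in a stretch of 23 models, each under 6 control counts, with 246 salinity counts and 2 control counts. The pair held 228 of those salinity counts. Also on chromosome 9, LOC_Os09g19290 and LOC_Os09g19350 had 32 and 72 salinity counts and 0 control counts, again 25.8 kb apart. LOC_Os02g15160 and LOC_Os02g15240 on chromosome 2, with 32 salinity counts each, are 52.6 kb apart.

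Counted over the genome, 16 of the 58 models lay within 100 kb of another in 6 groups, and 42 lay alone. Shares in other sets of models are given further below, and no expected number was computed. The models next to each other on the chromosome were 5, the 3 of the distal run and the pair on chromosome 5. Control counts between the first and last model of a group varied widely. The 9 models of the chromosome 2 group held 2800 salinity counts and 9632 control counts. The 17 models of the chromosome 5 group held 368 salinity counts and 21 control counts, and the 7 from LOC_Os09g19290 to LOC_Os09g19350 held 116 salinity counts and 19 control counts. The distal run held 4 control counts, all of LOC_Os01g71558, and the other 2 groups held 0.

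The immediate neighbours of the 58 models were read on the same footing, one model to each side. Of 109 distinct neighbours that are not themselves among the 58, 60 had fewer than 6 control counts, or 55.0%, and 51.9% of all models in the table did. With each side counted and neighbours among the 58 included, the share was 57.8% for the 58. It was 31.5% for the other models with at least 24 salinity counts. At 0 in both libraries were 46 of the 109, and 24672 of the 55986 models in the table. Of the 58 models, 24 had both neighbours under 6 control counts, 19 had 1 and 15 had none. In the other models with at least 24 salinity counts, 12.2% had both neighbours under 6 control counts and 49.1% had none. Both neighbours were thus under 6 control counts for 41.4% of the 58 and 12.2% of the others, given without a test. For the 5 models next to another of the 58, that neighbour is under 6 control counts by the selection itself. The 3 models of the middle run on chromosome 1 are not next to each other. Below 96 salinity counts the shares were 33.3% of 42 models and 14.3% of 5588.

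Stretches of models under 6 control counts held 1 model in 15 cases, 2 to 5 models around 18 of the 58, 6 to 10 around 12, and 11 or more around 13. Stretch lengths around other models are not given, and 51.9% of all models were under 6 control counts. Long stretches are therefore not shown to be particular to the 58. The 58 models fell into 51 such stretches, 47 of which held 1 of them. The longest stretch, 29 models over 144.7 kb on chromosome 12, held LOC_Os12g08670 with 86 salinity counts and 0 control counts and just 2 further salinity counts. LOC_Os09g19350 lay in a stretch of 23 models over 143.1 kb. LOC_Os04g25784, with 112 salinity counts and 0 control counts, was the only one of 13 models over 93.4 kb to have a salinity count. LOC_Os04g03740, with 98 salinity counts and 0 control counts, lay 315704 bases from the nearest model with at least 10 counts on its left and 48325 bases from that on its right.

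At the other end, 15 models sat directly between models with 6 or more control counts. LOC_Os05g33560 had 360 salinity counts and 0 control counts between LOC_Os05g33554, at 4 salinity and 40 control counts, and LOC_Os05g33570, at 3020 salinity and 8054 control counts. LOC_Os03g22720 had 44 salinity counts and 0 control counts between LOC_Os03g22700 and LOC_Os03g22730. Those neighbours had 180 and 704 salinity counts, and 1221 and 3678 control counts. LOC_Os08g08850 had 122 salinity counts and 0 control counts, 421 bases from LOC_Os08g08860, which had 34 salinity and 177 control counts. In these places the models on either side were read in both libraries.

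Neighbours whose summed count over the libraries was 10 or more numbered 51, and their median log2 ratio of salinity over control was 0.10, against -0.09 over the other 26580 models with that many counts. By the rule that the whole 95% counting interval lies past 4-fold, 4 of the 51 were higher and 0 lower. That is 7.84% of the neighbours, where 2.76% of those 26580 models were higher and 1.5% lower. With intervals from the counts as deposited, 5 of the 51 were higher, where 3.74% of the 26580 were. Past 2-fold, 8 were higher and 2 lower, where 7.77% and 5.18% of the 26580 were. With total counts in place of TMM factors, 2 of the 51 were higher past 4-fold. That scale lowers every ratio, and the share of the 26580 past 4-fold on it is not given here.

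The 4 neighbours past 4-fold differ in kind. LOC_Os03g59360 was the most abundant of them, at 1350 CPM in salinity and 215.0 CPM in control, a log2 ratio of 2.65 (interval 2.59 to 2.71), and lies 1327 bases after LOC_Os03g59350. LOC_Os03g58170 was at 72.5 CPM in salinity and 7.09 CPM in control, a log2 ratio of 3.35 (interval 3.07 to 3.64), and lies 19257 bases before LOC_Os03g58180. LOC_Os12g43720 was at 32.8 CPM in salinity and 5.79 CPM in control, a log2 ratio of 2.50 (interval 2.13 to 2.87), next to LOC_Os12g43710. LOC_Os02g12490 had 16 salinity counts and 0 control counts, and lies next to LOC_Os02g12480. The lower neighbours past 2-fold were LOC_Os05g12580, at 3.34 CPM in salinity and 15.9 CPM in control, and LOC_Os08g23730, at 28.2 CPM in salinity and 70.3 CPM in control.

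**Figure D4:**
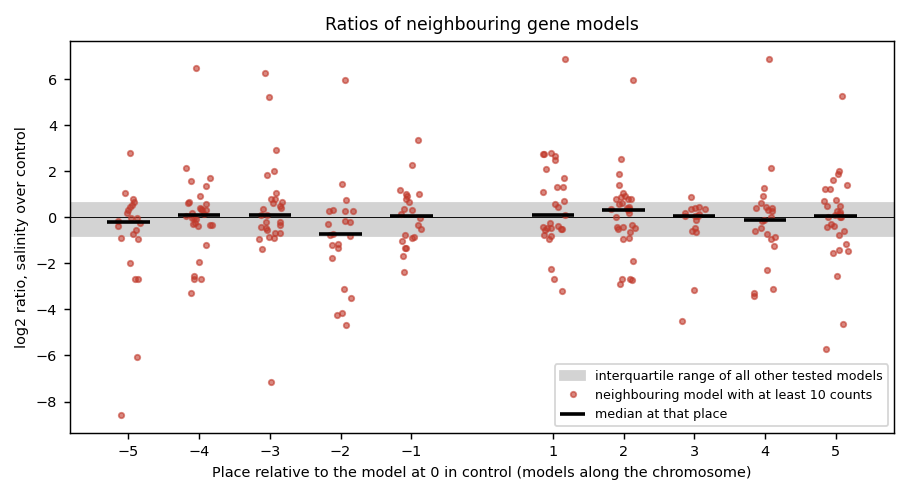
Log2 ratio of salinity over control for models with at least 10 counts at each of 5 places to either side of the 58 models (red points; a model near 2 of the 58 appears once for each), with the median at each place (black lines) and the interquartile range of all other tested models (grey band, -0.82 to 0.60). The medians lie between -0.74 and 0.33, all inside the band, with single points beyond 6 in both directions of the axis.

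Distances to the nearest model with at least 10 counts that is not itself one of the 58 had a median of 3504 bases, a minimum of 270 bases and a maximum of 69375 bases. It was within 1000 bases for 7 models, within 2000 for 17 and within 5000 for 33. The closest was LOC_Os01g56850, with 48 salinity counts and 0 control counts, 270 bases from LOC_Os01g56860. LOC_Os03g58180, with 34 salinity counts, lies 544 bases from LOC_Os03g58190 on the same strand. Whether reads of such close models belong to the neighbour's transcript was not tested. LOC_Os12g16524, with 38 salinity counts and 0 control counts, is the only one of the 58 that shares exon bases with another model. The other model, LOC_Os12g16520 on the opposite strand, was at 0 in both libraries, and the sources used here do not say whether counting used strand.

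In exon structure, 20 of the 58 models were a single exon block after merging overlapping exons, or 34.5%, against 15.9% of the other models with at least 24 salinity counts. Models of 1 or 2 blocks made up 56.9% against 30.8%, and models of 5 or more blocks 20.7% against 48.4%. The same comparison was made below 96 salinity counts. There, 35.7% of 42 models at 0 in control and 21.4% of 5588 other models were single blocks. The median number of blocks was 2 in the 58 and 4 in the others.

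Exon lengths were closer. The 58 had a median of 1659 bases, with quartiles of 958 and 2301, and the others a median of 1804 bases, with quartiles of 1268 and 2532. At like salinity counts the medians differed in either direction. They were 1477.5 in the 58 and 1521 in the others at 24 to 47 counts, and 1623 and 1575.5 at 48 to 95. At 96 to 191 counts they were 1648.5 and 1731, and at 192 or more 1987.5 and 1957. The longest of the 58 were LOC_Os09g19290 with 5841 exon bases, LOC_Os01g71620 with 5247 and LOC_Os02g32230 with 5045. They had 32, 136 and 80 salinity counts, which for LOC_Os09g19290 is the lowest level per length of the 58, 0.398 CPM per kilobase. The shortest were LOC_Os01g28940 with 318 exon bases, LOC_Os12g06930 with 375 and LOC_Os03g58180 with 444, with 46, 34 and 34 salinity counts. Neither length nor exon structure entered the selection directly, though the counts that did depend on exon length as well as on level.

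Further models set the 58 in context. A group of 271 models had at least 24 salinity counts, some control count and a ratio of at least 14.4-fold, the smallest bound of the 58. Their median levels were 18.3 CPM in salinity and 0.585 CPM in control. In the reverse direction, 36 models were at 0 in salinity with a bound of at least 14.4-fold, which takes 12.5 CPM or 622 control counts. Those are 0.305% of the 11793 models at that control level. At the same level in salinity, 9 of 11422 models, 0.0788%, were among the 58. The libraries differ in depth, so that a count of 0 allows up to 0.872 CPM in salinity and 0.121 CPM in control.

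Single exon blocks made up 34.5% of the 58, 26.6% of the 271, 30.6% of the 36 and 15.9% of the other models with at least 24 salinity counts. Models whose next models on both sides had fewer than 10 counts made up 31.0% of the 58, 15.9% of the 271, 27.8% of the 36 and 12.3% of the others. By value, the shares of the 58 were nearer to those of the 36 models of the reverse direction than to those of the others. This order does not show whether the 58 and the 36 are alike in kind. The 36 were not matched to the 58 in level, with a median of 33.8 CPM in control against 3.49 CPM in salinity for the 58. The shares of the 36 rest on 11 and 10 models, and the others are mostly more abundant than the 58. Below 96 salinity counts, both next models were under 10 counts for 31.0% of 42 of the 58 and 14.6% of 5588 others. These are descriptions with no test.

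**Figure D5:**
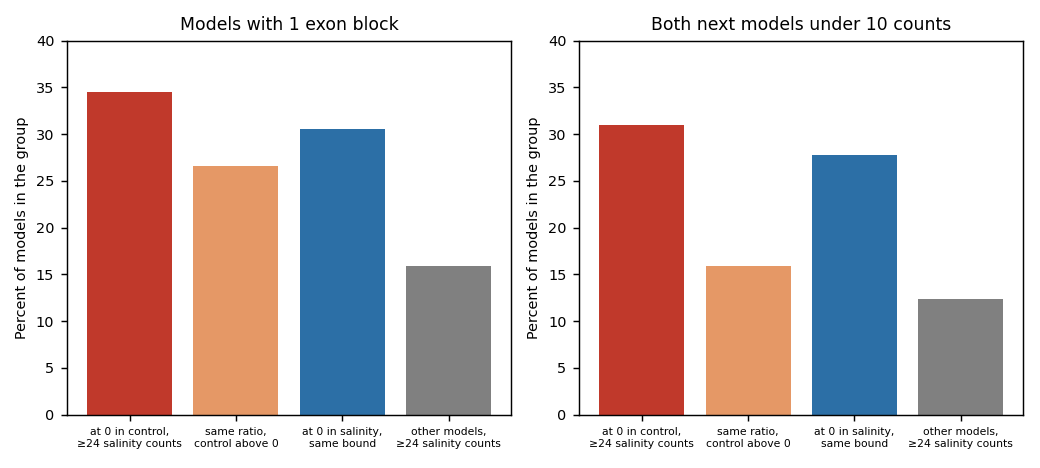
Percent of gene models with 1 exon block (left) and with both next models under 10 counts (right) in 4 groups: the 58 at 0 in control with at least 24 salinity counts, 271 at the same ratio with a control count, 36 at 0 in salinity at the same bound, and the other 20216 models with at least 24 salinity counts. The 58 stand at 34.5% and 31.0%, the 36 at 30.6% and 27.8%, and the other models at 15.9% and 12.3%.

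Places of the 2 kinds of one-library model are given without a test, for chromosome 1, with the most of the 58, and chromosomes 10 and 11, with 0 of them. Of the 36 models at 0 in salinity, 8 lay on chromosome 10 and 1 on chromosome 11, where 0 of the 58 lay. Chromosome 10 holds 6.27% and chromosome 11 holds 7.43% of all models. The 58 shared out by models with at least 24 salinity counts would give them 2.89 and 2.90. On chromosome 1 lay 4 of the 36, or 11.1%, and 16 of the 58, or 27.6%. That chromosome holds 11.7% of all models and 14.6% of the other models with at least 24 salinity counts. Among the 271 models at the same ratio with a control count, 16.6% lay on chromosome 1 and 11.8% on chromosomes 10 and 11 together. Models close together are counted one by one here. Examples are the 2 runs of the 58 on chromosome 1, and LOC_Os10g05980 and LOC_Os10g05990 of the 36. Of the 58, 4 had a model of the 36 within 100 kb. These were 3 models of the distal run on chromosome 1, near LOC_Os01g71474, and LOC_Os01g14926, near LOC_Os01g14850. LOC_Os01g14926 had 24 salinity counts and 0 control counts, and LOC_Os01g14850 had 0 salinity counts and 14388 control counts. Of the 58 models, 16 had another of the 58 within 100 kb, or 27.6%, and of the 36 models, 6 had another of the 36, or 16.7%. Of the 271 models at the same ratio with a control count, 74 had another of the 271 within 100 kb, or 27.3%. Such shares also depend on how many models a group holds.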

How the data were processed

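Total RNA of 800 ng per sample was poly(A)-enriched and made into NEBNext Ultra II libraries, per the labels' protocols. The authors deposited raw counts, whole numbers, for each gene model beside its exon positions and exon length. The tools named in the submitters' processing notes are STAR, featureCounts, DESeq2, FastQC and MultiQC, with no role or version. The sources used here give no genome build, annotation or counting options.

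Salinity and control libraries were put on 1 scale by TMM (edgeR 4.0.16, R 4.3.3), using models whose summed count was 10 or more. Log2 ratios used a prior count of 0.5. Intervals are exact at 95%, Poisson for levels and conditional binomial for ratios, on the read-pair scale. They cover counting error only. For 0 counts the floor was 3 read pairs per library, 12 salinity counts (0.872 CPM) or 6 control counts (0.121 CPM). Neighbours are the next models by start position. Exon blocks are exons merged where they overlap. Scripts ran in Python 3.11.15 (scipy 1.17.1, pandas 2.3.3, numpy 2.4.6; figures by matplotlib 3.10.9) and were tested on simulated data. DESeq2 1.42.0 gave alternative size factors.

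The models, groups and comparisons were chosen with earlier results of these data known. The models named were the 12 most abundant, the 5 highest per length, those next to each other, the longest and shortest 3, those sharing exon bases, those with neighbours past 4-fold, the neighbours, and 5 at each edge of the thresholds. The 7 at exactly 24 counts were named in full, and models named for the length of their stretch, for the gap to a neighbour or for their group within 100 kb were chosen after their values were seen. Marker loci were listed by hand from general knowledge, and their names are not paired with these identifiers in the RefSeq name table (assembly ASM3414082v1), which matched 0 of the 58 models. No sequence is printed, since none was at hand for these identifiers.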

Additional observations from a re-analysis of the deposited data

How the results depend on the processing

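The number of models followed the thresholds. It was 58 as described, 115 with at least 12 salinity counts, 30 with at least 48 and 16 with at least 96, and 109 with up to 5 control counts allowed. With up to 2 control counts it was 84, with multiples of 4 alone 48, without shared exon bases 57, and with at least 300 exon bases 58. Total counts gave a median salinity level of 3.19 CPM and a median bound of 24.1-fold. The median bound was 57.6-fold with a floor of 3 counts and 14.9-fold with the lower Poisson limit. Against 4 neighbours past 4-fold, total counts gave 2, a 2-fold rule 8, an 8-fold rule 1, 5 models on each side 11 of 248, and the nearest model with at least 10 counts 7 of 102. Over the 26580 other tested models, 2.76% were higher past 4-fold and 7.77% past 2-fold. No such share is given for total counts or the 8-fold rule. Models next to another of the set numbered 5, against 11 within 5 models, 11 of 115 with at least 12 salinity counts, 3 of 30 with at least 48, and 13 when a neighbour at 0 in control with at least 4 salinity counts sufficed. Models at 0 in salinity numbered 58 with a floor of 3 counts in place of 36. Some alternatives change the rule itself and total counts change only the scale, and why values moved was not tested. A value counted as stable within the interval where a result has one, and within 1.5 times otherwise. By that limit 22 alternatives for these results were stable, those giving 84, 48, 57 and 58 models among them, and 18 moved. Counts were compared as they stood, also where an alternative changed the number of models they were drawn from. The 22 and 18 are therefore no measure of how stable the shares are. All 232 rescaled levels of single models were stable too. Those levels are no further check, since each rescaling multiplies every salinity level by the same factor. The Poisson limit, multiples of 4, the nearest-model window, intervals from deposited counts and the 4-count neighbour rule were chosen after seeing the data. No paired analysis was possible because each group has 1 library, and no replicate could be left out. The salinity depth of 3757832 read pairs limits which models could reach 24 counts.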
